A study of Mus musculus with 2 samples.

Results

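Nuclei that the deposited annotation calls cones in the Tet tcKO retina were chosen by that annotation, and they fall into its clusters 46, 48 and 50 to 55. They were 3225 of the 6766 nuclei of the Tet tcKO library, 47.7% (95% interval 46.5 to 48.9), and 3225 of 14123 nuclei in both libraries. Single-nucleus RNA-seq (snRNA-seq) was done on whole retinas of C57 BL/6J mice at postnatal day 21 (P21) with a 3′ kit that partitions nuclei by templated particles (PIPseq). The series holds 1 library for each of 2 genotypes. Tet tcKO retinas carried floxed Tet1, Tet2 and Tet3 alleles on both chromosomes, deleted by Chx10-Cre-GFP, a transgene active in retinal progenitor cells (RPCs) that is known to be mosaic and was bred to carry more than 1 copy. The Cre- control, labelled WT, came from age-matched animals without the transgene. In each genotype, nuclei came from more than 1 pool of animals, and the pool of a nucleus is not recorded in its library. So each genotype counted as 1 sample, differences have no replicate check, and genotype, annotation and library cannot be told apart.

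Photoreceptors of the mouse retina are mostly rods, which serve dim light, with a minority of cones, which serve daylight and colour. Both turn light into a change in membrane current by the same chain of an opsin, a transducin G protein, a phosphodiesterase and a cyclic nucleotide-gated channel, each built from rod-specific or cone-specific subunits. A postmitotic precursor under Otx2 and Crx becomes a rod where Nrl and its target Nr2e3 act, and photoreceptors without Nrl take on features of cones that express short-wavelength opsin. TET enzymes oxidise 5-methylcytosine, the first step of active removal of DNA methylation.

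The reference was the 5214 Cre- nuclei annotated as rods. Levels are UMIs (unique molecules) of a gene summed over the nuclei of a population per 1000000 UMIs of that population (CPM), and ratios are log2 of cone-annotated Tet tcKO nuclei over the reference. The cone-annotated nuclei held 7402022 UMIs, or a median per nucleus of 1715 UMIs from 1356 genes, and the Cre- rods held 6544422 UMIs, or 1025.5 UMIs from 805 genes. All intervals are exact at 95% and cover counting error only. The 13 mitochondrial genes were 2.55% of UMIs in the cone-annotated nuclei, 7.46% in Cre- rods and 1.13% in the other Tet tcKO nuclei, and the nuclear RNA Malat1 was 1.33%, 2.96% and 3.64%. Ratios of genes are therefore read against all genes, whose median log2 ratio over Cre- rods was 0.25, and the part of these shares in any result was not tested.

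The label was set beside marker genes, which describe the nuclei and cannot test it, since the authors named clusters by marker genes in the same nuclei. All 6 genes given as markers of these nuclei (Arr3, Opn1sw, Gnat2, Gngt2, Robo3 and Gm35229) were detected in each of the 8 clusters. They were also all detected in Cre- rods and in the other Tet tcKO nuclei. Summed, they stood at 3929 CPM in the cone-annotated nuclei, 946 CPM in Cre- rods and 1521 CPM in the other Tet tcKO nuclei. Over the clusters they ran from 1854 CPM (cluster 52) to 4728 CPM (cluster 48). Tet tcKO bipolar nuclei alone were at 2435 CPM, above cluster 52. A list of 10 rod markers was at 6563 CPM in the cone-annotated nuclei, against 11727 CPM in Cre- rods and 2252 CPM in the other Tet tcKO nuclei. None of the 10 was at 0, but none was in Tet tcKO amacrine nuclei either, which held 1348 CPM. As a population, the cone-annotated nuclei thus held transcripts of both photoreceptor types. These sums do not show whether single nuclei did, and the part of free RNA was not tested. Markers of other retinal cells summed to 2674 CPM for bipolar cells (3538 CPM in Cre- rods), 1358 CPM for amacrine cells (966 CPM) and 1070 CPM for Müller glia (1128 CPM). Tet tcKO nuclei annotated as those classes held 3415 CPM (bipolar), 2646 CPM (amacrine) and 2814 CPM (Müller glia) of their own markers. The part of these markers in any result below was not tested. Names of the reference nuclei were looked at too. None of the 15 Cre- rod clusters had a rod marker among its 10 leading genes over the rest of that library. In 3 clusters a marker of another class was there. Rods were 5214 of the 7357 Cre- nuclei, so this comparison could not show markers that rod clusters share. The 10 rod markers summed to 3067 CPM in Cre- amacrine, 2339 CPM in Cre- retinal ganglion cell and 6252 CPM in Cre- bipolar nuclei. These sums lay below the 11727 CPM of Cre- rods, and Cre- nuclei annotated as cones were at 14945 CPM. No cone marker was among the 10 genes at 50 CPM or more that led the cone-annotated nuclei over the rest of their own library, where Gngt1 and Nrl of the rod markers were. The 265 Cre- nuclei annotated as cones held 88.2 CPM of Gnat2 and 550 CPM of Nrl, against 84.2 and 435 CPM in Cre- rods. Of these 265 nuclei, 43.4% were among the 5% with the highest doublet scores in their library, against 2.95% of Cre- rods. Their median depth was 3736 UMIs.

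The results below turn on a few photoreceptor genes. For 5 of them, the stretch of 250 bases just before the start of the canonical transcript is printed. It shows which short photoreceptor motifs and CG dinucleotides lie there. The 5 genes are 1 cone gene, 1 early cone gene, 1 progenitor gene and 2 rod genes, all with no annotated exon in the stretch. Stretches are on GRCm39 and read 5′ to 3′ on the gene's strand. Those of Opn1sw and Gngt1 lie within the annotated span of the gene, which begins farther upstream. Capitals mark TAATCC, the core bound by Crx and Otx2, and TGCTGAC, a core of the site bound by Nrl. Both strands were searched, so a match on the other strand reads GGATTA or GTCAGCA, and no marked matches overlap in the 5 stretches.
Opn1sw, chr6:29380513-29380762, minus strand: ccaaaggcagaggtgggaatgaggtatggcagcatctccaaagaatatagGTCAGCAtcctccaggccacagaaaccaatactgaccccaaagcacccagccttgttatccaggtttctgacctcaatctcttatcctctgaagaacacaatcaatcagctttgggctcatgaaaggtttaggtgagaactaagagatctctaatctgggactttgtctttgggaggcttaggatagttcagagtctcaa
Otop3, chr11:115225307-115225556, plus strand: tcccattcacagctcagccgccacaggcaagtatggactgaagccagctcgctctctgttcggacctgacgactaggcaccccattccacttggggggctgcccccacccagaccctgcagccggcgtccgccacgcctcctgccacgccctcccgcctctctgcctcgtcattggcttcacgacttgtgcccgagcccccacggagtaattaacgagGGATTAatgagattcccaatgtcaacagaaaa
Fabp7, chr10:57660706-57660955, plus strand: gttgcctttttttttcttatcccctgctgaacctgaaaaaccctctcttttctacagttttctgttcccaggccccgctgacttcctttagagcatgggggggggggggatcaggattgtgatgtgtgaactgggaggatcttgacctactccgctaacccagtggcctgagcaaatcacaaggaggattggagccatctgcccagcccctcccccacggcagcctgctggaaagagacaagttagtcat
Gnat1, chr9:107556912-107557161, minus strand: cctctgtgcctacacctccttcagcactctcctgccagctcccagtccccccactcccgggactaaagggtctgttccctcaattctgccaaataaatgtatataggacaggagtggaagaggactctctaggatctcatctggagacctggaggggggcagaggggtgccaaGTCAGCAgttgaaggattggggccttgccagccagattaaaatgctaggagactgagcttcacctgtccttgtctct
Gngt1, chr6:3993542-3993791, plus strand: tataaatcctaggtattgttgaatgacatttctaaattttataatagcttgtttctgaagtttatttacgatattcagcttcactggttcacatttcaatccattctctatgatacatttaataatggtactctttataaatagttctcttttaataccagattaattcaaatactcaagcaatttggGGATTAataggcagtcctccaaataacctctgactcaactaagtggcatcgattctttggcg
Opn1sw held 0 CG dinucleotides and Gnat1 held 1, whereas Otop3 held 15. TAATCC lay in the stretches of Otop3 and Gngt1, TGCTGAC in those of Opn1sw and Gnat1, and neither in that of Fabp7. Over lists, TAATCC was found before 4 of 11 cone and 5 of 11 rod phototransduction genes, against 6.99% of 21297 protein-coding genes. It was found before 2 of 12 early cone genes and 0 of 20 precursor and progenitor genes. TGCTGAC was found before 1 of 11 cone and 2 of 11 rod genes, against 3.21% of all. The median number of CG dinucleotides was 2 for the cone list, 3 for the rod list, 15 for the early cone list, 13 for the precursor list and 8 for all genes. A match describes these letters in the window and is not a bound site.

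Against Cre- rods, most genes of the cone phototransduction cascade were higher in the cone-annotated nuclei and most of the rod cascade were lower. Of 11367 genes at 10 CPM or more in 1 of the populations, 861 (7.57%) were 2-fold or more higher and 299 (2.63%) 2-fold or more lower. Of the 11 cone genes, 8 were 2-fold or more higher and 0 lower, with a median log2 ratio of 1.49. Of the 11 rod genes, 0 were 2-fold or more higher and 8 lower, with a median of -1.19. The split of all genes depended on scaling, since 74.2% of the genes 2-fold apart were higher by total UMIs, 52.8% with TMM factors and 52.5% with median of ratios factors. Both factors lowered every log2 ratio over Cre- rods by 0.18, to an all-gene median of 0.06, so any value between 0 and 0.18 below changes sign under them. With them the cone list stood at 1.31 and the rod list at -1.37.

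**Figure D1:**
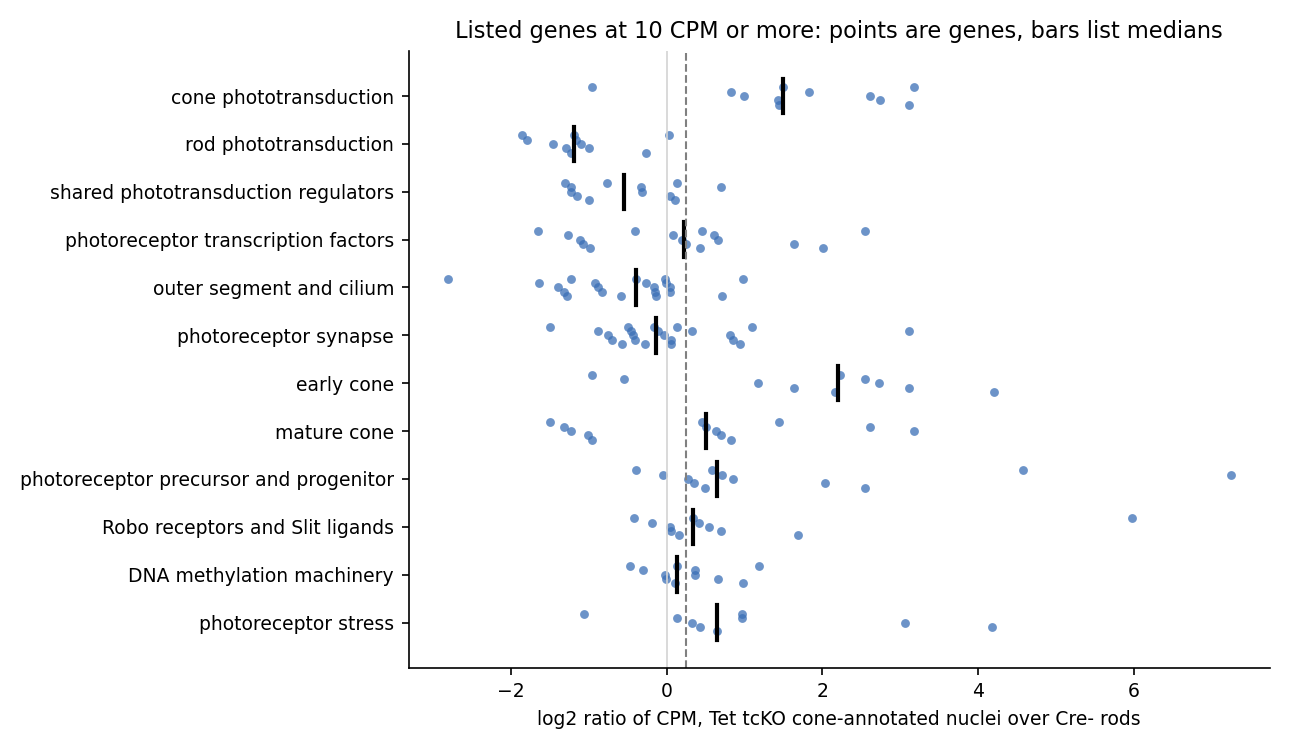
Each point is a listed gene at 10 CPM or more, placed by its log2 ratio of CPM in Tet tcKO cone-annotated nuclei over Cre- rods (x axis), and each bar is the median of a list (rows). The dashed line is the median of all genes, 0.25, and the cone phototransduction list had its median at 1.49 and the rod list at -1.19.

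Among the opsins, Opn1sw, the short-wavelength cone opsin, reached 653 CPM in the cone-annotated nuclei against 72.4 CPM in Cre- rods (log2 ratio 3.17, 3.04 to 3.31). It lies on chromosome 6 from 29376670 to 29388467 on the minus strand (GRCm39). Opn1mw, the middle-wavelength opsin, was at 208 and 117 CPM (0.83, 0.70 to 0.95). Both cone opsins were thus higher, and the interval of Opn1sw lay wholly above that of Opn1mw. The cone transducin subunits were Gnat2 (alpha; 515 and 84.2 CPM, log2 ratio 2.61, 2.48 to 2.74), Gngt2 (gamma; 319 and 47.8 CPM, 2.74, 2.57 to 2.91) and Gnb3 (beta; 887 and 315 CPM, 1.49, 1.42 to 1.57). All 3 subunits were more than 2-fold higher. The cone phosphodiesterase was split. Pde6c, its catalytic subunit, was at 218 and 81.0 CPM (1.43, 1.28 to 1.57), whereas Pde6h, its inhibitory subunit, was the one gene of the list below Cre- rods, at 20.5 and 39.9 CPM (-0.96, -1.26 to -0.66).

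For the channel, Cngb3, the cone beta subunit, was at 2043 and 236 CPM (3.12, 3.04 to 3.19). Cnga3, the cone alpha subunit, was at 15.1 and 4.28 CPM (1.82, 1.21 to 2.48). Slc24a2, the cone exchanger that clears calcium, was at 270 and 136 CPM (0.99, 0.87 to 1.10). Arr3, the arrestin that shuts off cone opsins, was at 2003 and 735 CPM (1.45, 1.40 to 1.49). When nuclei with Arr3 were counted in place of its molecules, relative to such counts over all genes, the ratio was -0.0470, the one sign change among named genes called 2-fold apart. Arr3 was in 94.3% of cone-annotated nuclei and 55.5% of Cre- rods, and the cause of the sign change was not tested.

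Rod genes were mostly lower than in Cre- rods and were still found. Gnat1, the rod transducin alpha subunit, was at 539 and 1205 CPM (-1.16, -1.22 to -1.11). Pde6a and Pde6b, the catalytic subunits of the rod phosphodiesterase, had log2 ratios of -1.46 (-1.53 to -1.38) and -1.23 (-1.28 to -1.18). Cnga1, the rod channel alpha subunit, was at 265 and 918 CPM (-1.79, -1.87 to -1.72), and Slc24a1, the rod exchanger, at 138 and 499 CPM (-1.86, -1.96 to -1.75). These were the lowest of the list. Gngt1, the rod transducin gamma subunit, was at 960 and 941 CPM (0.03, -0.02 to 0.08) and Sag, rod arrestin, at 2032 and 2441 CPM (-0.26, -0.30 to -0.23). Subunits of the same complex therefore differed, with Gnat1 more than 2-fold below Cre- rods and Gngt1 near the level in Cre- rods.

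The regulators shared by both cascades tended to lie on the rod side. Their median was -0.55 over 12 genes, of which 0 were 2-fold or more higher and 4 lower. Those 4 were Grk1, an opsin kinase (-1.31, -1.44 to -1.17), Rcvrn, the calcium sensor recoverin that restrains it (-1.23), Gucy2f, a guanylate cyclase (-1.22), and Guca1b, a cyclase activator (-1.15). Guca1a, another cyclase activator, was at -0.998 (-1.09 to -0.91). Aipl1, a chaperone of phosphodiesterase, was the highest of the list at 275 and 170 CPM (0.69, 0.59 to 0.80). Rgs9, which speeds transducin shutoff, was at 685 and 666 CPM (0.04, -0.02 to 0.10).

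Transcription factors of photoreceptors divided by role. Their median was 0.22 over 16 genes, with 3 genes 2-fold or more higher and 4 lower, and it was -0.00348 when nuclei holding a gene were counted in place of molecules. Nrl, which directs rod fate, was at 221 and 435 CPM (-0.98, -1.07 to -0.89). It lies on chromosome 14 from 55756435 to 55762438 on the minus strand. Nr2e3, its partner in repressing cone genes, was at 143 and 300 CPM (-1.07, -1.18 to -0.96). Esrrb (-1.27), Mef2c (-1.65) and Samd11 (-1.11) were the others 2-fold or more lower, and the first of them is a rod survival factor. The factors on the higher side were Rxrg, a retinoid receptor of cones (41.9 and 7.18 CPM, 2.54, 2.10 to 3.02), Prdm1, which restrains bipolar fate in photoreceptor precursors (176 and 43.9 CPM, 2.01, 1.82 to 2.19), and Sall3, a factor of short-wavelength cones (1.63, 1.19 to 2.09). Otx2 (0.42), Crx (0.61) and Neurod1 (0.66), which act in both photoreceptor types, were at 295, 342 and 451 CPM in the cone-annotated nuclei. Thrb, a thyroid hormone receptor needed for middle-wavelength opsin, was at 468 and 340 CPM (0.46, 0.38 to 0.54).

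Structural genes of the outer segment and cilium were mostly at or below Cre- rods. The median was -0.39 over 21 genes, with 0 genes 2-fold or more higher and 6 lower. Prph2, the tetraspanin that shapes disc rims, was at 373 and 933 CPM (-1.32, -1.39 to -1.26). Rdh8, a retinol dehydrogenase of outer segments, was at 2.16 and 15.1 CPM (-2.81, -3.67 to -2.04). The other 4 were Fscn2, an actin bundler (-1.64), Arl3, a GTPase of ciliary traffic (-1.39), Impg1, a matrix proteoglycan (-1.28), and Cep290, a protein of the ciliary transition zone (-1.23). Cdhr1, a cadherin at the base of the outer segment, was the highest at 220 and 112 CPM (0.98, 0.85 to 1.11). Rpgrip1, a ciliary scaffold, was at 4401 and 4469 CPM (-0.02, -0.04 to 0.00).

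At the synapse, ratios were smaller. The median was -0.14 over 22 genes, with 2 genes 2-fold or more higher and 1 lower. The 2 higher were Cngb3, which this list also holds, and Lrit3, a leucine-rich repeat protein of photoreceptor terminals (28.6 and 13.4 CPM, 1.09, 0.73 to 1.47). Complexins, which control vesicle release, went apart, with Cplx4 at 95.6 and 269 CPM (-1.49, -1.62 to -1.37) and Cplx3 at 156 and 88.8 CPM (0.81, 0.67 to 0.96). Elfn2, the cone partner of a bipolar cell receptor, was at 80.0 and 41.6 CPM (0.94, 0.73 to 1.16), and Elfn1, the rod partner, at 56.6 and 58.1 CPM (-0.04, -0.24 to 0.17). Cacna1f, the calcium channel of photoreceptor terminals, was at 238 and 437 CPM (-0.88, -0.96 to -0.79).

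Early and mature cone genes were taken from the study's supplement, which had chosen them from a developmental atlas. Of the early list, 10 of 12 genes reached 10 CPM, and 8 were 2-fold or more higher and 0 lower, with a median of 2.20. Otop3, a proton channel, was at 174 and 9.47 CPM (4.20, 3.83 to 4.59), Cltb, a clathrin light chain, at 469 and 70.9 CPM (2.73, 2.59 to 2.87), and Ccdc136 at 1126 and 241 CPM (2.23, 2.15 to 2.30). Gulo (2.17) and Parvb (1.17) completed the higher members beside Rxrg, Sall3 and Cngb3, and Dnai1 (-0.95) and Syndig1l (-0.54) were below Cre- rods at 6.08 and 8.92 CPM. Of the mature list, 13 of 14 genes were tested, with 3 genes 2-fold or more higher, 4 lower and a median of 0.50. The 3 higher were Opn1sw, Gnat2 and Arr3, and the 4 lower were Cplx4, Prph2, Rcvrn and Krt18 (-1.01, -1.38 to -0.65). Counting nuclei in place of molecules gave an early median of 1.41 and a mature median of -0.0185.

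Precursor and progenitor genes were sparse, and 8 of 20 did not reach 10 CPM in either population, among them Mki67 and Top2a, genes of dividing cells, and Olig2, Neurog2 and Dll3, genes of neurogenic progenitors. Of the 12 tested, 4 were 2-fold or more higher and 0 lower, with a median of 0.65. Fabp7, a fatty acid binding protein of progenitors and glia, had 684 UMIs in the cone-annotated nuclei and 4 in Cre- rods (92.4 and 0.611 CPM, 7.24, 5.88 to 9.12). Its molecules were spread over 591 nuclei, with at most 4 in any nucleus. Atoh7, a proneural factor of early-born retinal cells, was at 25.4 and 1.07 CPM (4.57, 3.50 to 5.90). Hes5, a Notch target, was at 24.0 and 4.13 CPM (2.54, 1.95 to 3.18) and Notch1 at 60.9 and 14.8 CPM (2.04, 1.72 to 2.37). Onecut2, a factor of early precursors, was at 19.7 and 25.8 CPM (-0.39, -0.72 to -0.06).

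Robo3, an axon guidance receptor of the Roundabout family, had 2489 UMIs in the cone-annotated nuclei and 35 in Cre- rods (336 and 5.35 CPM; 5.97, 5.49 to 6.50). The gene lies on chromosome 9 from 37326965 to 37344737 on the minus strand, and 1574 nuclei held a molecule of it. Related receptors did not share this difference, with Robo1 at 250 and 284 CPM (-0.19, -0.28 to -0.09) and Robo2 at 360 and 247 CPM (0.54, 0.45 to 0.63). Slit3, a secreted ligand of the family, was at 26.1 and 8.10 CPM (1.69, 1.24 to 2.15), and Slit2 at 428 and 411 CPM (0.06, -0.01 to 0.13). Over 11 Robo, Slit and adaptor genes the median was 0.34, with 2 genes 2-fold or more higher and 0 lower.

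Of the DNA methylation machinery, 11 of 13 genes were tested, with a median of 0.14, 1 gene 2-fold or more higher and 0 lower. Tdg, the glycosylase that removes the bases TET enzymes make, was that gene, at 66.6 and 29.3 CPM (1.18, 0.94 to 1.43). The targeted genes were at 54.8 and 42.6 CPM (Tet1), 152 and 96.0 CPM (Tet2) and 186 and 187 CPM (Tet3), and since counts cover whole genes they check neither the deletion nor the labels. Of 15 stress genes 9 were tested, with a median of 0.65, 2 genes 2-fold or more higher and 1 lower. Egr1, an immediate early gene, was at 88.2 and 10.5 CPM (3.06, 2.71 to 3.44) and Socs3, an inhibitor of cytokine signalling, at 16.6 and 0.917 CPM (4.18, 3.02 to 5.65). Edn2, a signal of stressed photoreceptors, and Gfap were both under 10 CPM.

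Over all genes at 50 CPM or more in 1 population, the highest ratio belonged to Gm35229, a long noncoding RNA on chromosome 17 (84244745 to 84264978), with 756 and 3 UMIs (7.80, 6.25 to 10.08). It was followed by Gm1698 (7.44), Fabp7, Robo3, Chrnb4 (5.59), Poteg (5.52), Otop3, Eya1 (3.28), Opn1sw and Cngb3. Ratios over the other Tet tcKO nuclei, given below, were smaller for Gm35229, Fabp7, Robo3, Otop3, Opn1sw and Cngb3. Chrnb4 encodes a nicotinic receptor subunit and Eya1 a developmental phosphatase. Gm1698 and Poteg each overlap Gm45861 on the same strand, and Gm35229 overlaps Gm55753, so their counts could be split between genes. The lowest were Spc25, a kinetochore protein (125 and 755 UMIs, -2.77, -3.06 to -2.50), Endov (-2.08), A930006I01Rik (-1.92), the mitochondrial mt-Nd5 (-1.90), Gm40477 (-1.89), Ppara (-1.86), Slc24a1, mt-Co1 (-1.84), Cnga1 and Spink13 (-1.79).

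Next, the cone-annotated nuclei were set against the 3541 other nuclei of the same library, which removes the genotype but not the fact that classes were drawn from the same genes. These ratios share the cone-annotated nuclei with the ratios above. Of 11425 genes at 10 CPM or more, 1879 (16.4%) were 2-fold or more higher and 531 (4.65%) lower, with an all-gene median of 0.27. Of those apart, 78.0% were higher by total UMIs, 59.3% with TMM and 52.8% with median of ratios factors. These factors lowered every log2 ratio over the other Tet tcKO nuclei by 0.19 (TMM) and 0.24 (median of ratios). Here rod and cone genes stood on the same side. The cone list had a median of 1.13 with 8 of 11 genes 2-fold or more higher and 0 lower, and the rod list one of 1.46 with 9 of 11 higher and 0 lower. The shared regulators had a median of 1.46 with 10 of 12 higher, the transcription factors 0.91 with 8 of 16 higher, and the mature cone list 1.49 with 12 of 13 higher, all with 0 lower. Gngt1 had the highest ratio of any gene at 50 CPM or more in the cone-annotated nuclei (960 and 204 CPM, 2.23, 2.16 to 2.31). Nrl (221 and 52.7 CPM, 2.07, 1.92 to 2.22) and Rgs9bp, which anchors Rgs9 (2.05), were also among the first 10, with A930003A15Rik (2.12), Slco4a1 (2.10), Llgl2 (2.07), Uqcc3, Gm28875, Susd3 and Efcab8.

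Genes that set these nuclei apart from Cre- rods, such as Cngb3, Robo3 and Opn1sw, were also found in other Tet tcKO classes. Over the other Tet tcKO nuclei, no ratio exceeded 1.87 among the 6 given markers, which include Gm35229. The highest was 1.87 in the precursor list, which holds Fabp7, and 1.73 in the early cone list, which holds Otop3. Over Cre- rods, Gm35229, Fabp7 and Otop3 stood at 7.80, 7.24 and 4.20. Cngb3 was at 3066 CPM in Tet tcKO bipolar nuclei and 763 CPM in amacrine nuclei, so its ratio over the other Tet tcKO nuclei was 0.18 (0.15 to 0.21). That ratio changes sign under TMM and median of ratios factors. In Cre- amacrine nuclei Cngb3 was at 172 CPM. Robo3 was at 222 CPM in bipolar, 76.4 CPM in Tet tcKO amacrine and 7.16 CPM in Cre- amacrine nuclei. Opn1sw was at 255, 116 and 32.2 CPM in the same order. In amacrine nuclei Cngb3, Robo3 and Opn1sw were thus higher in the Tet tcKO library than in the Cre- one, and how much of it was free RNA was not tested. The early cone list had a median of 0.74 over the other Tet tcKO nuclei with 2 of 9 genes 2-fold or more higher and 0 lower, the precursor list one of 0.62 with 5 of 13 higher and 2 lower, and the Robo and Slit list one of -0.66 with 1 of 11 higher and 3 lower. For the outer segment list it was 0.95 with 10 of 20 higher, for the synapse list 0.26 with 7 of 22 higher, for the methylation list 0.19 with 1 of 11 higher and for the stress list 1.00 with 5 of 9 higher, each with 0 lower.

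Amacrine nuclei, taken as a background for photoreceptor transcripts, were below the cone-annotated nuclei in most genes of both cascades. Slc24a2 was at or below the joint amacrine and retinal ganglion cell level in the cone-annotated nuclei and in Cre- rods. Over Tet tcKO amacrine nuclei, cone-annotated nuclei had log2 ratios of 2.49 for Opn1sw, 2.67 for Gnat2, 2.47 for Gngt2 and 2.47 for Arr3, with lower ones of 1.42 for Cngb3, 0.90 for Cnga3 and -0.10 for Slc24a2. Rod genes had ratios of 2.51 for Nrl, 2.12 for Gnat1, 2.38 for Cnga1 and 2.74 for Gngt1, with lower ones of 1.41 for Slc24a1 and 1.16 for Gnb1. In the Cre- library, rods over amacrine nuclei had ratios of 2.00 for Nrl and 2.04 for Cnga1, but of 1.17 for Opn1sw, 1.65 for Gnat2 and -0.42 for Robo3.

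**Figure D2:**
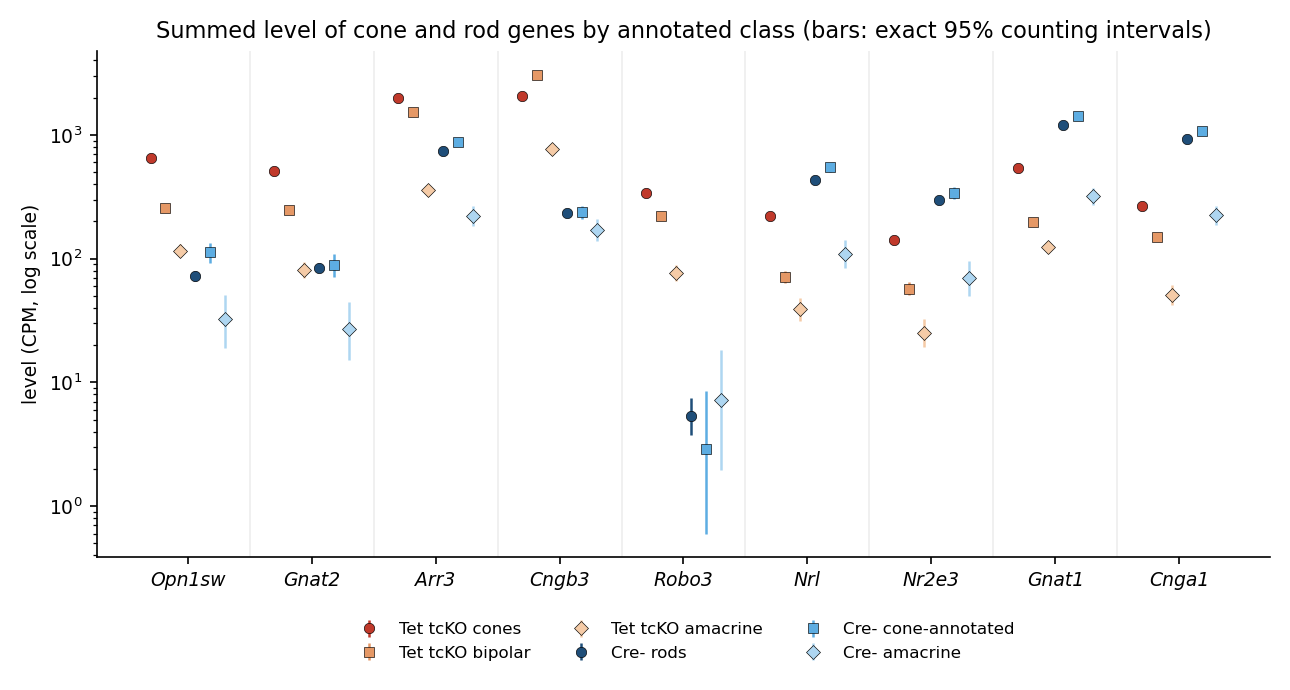
Level in CPM (y axis, log scale) of 9 genes (x axis), 5 higher and 4 lower in cone-annotated Tet tcKO nuclei than in Cre- rods, in 6 annotated populations of both libraries, with bars for exact 95% counting intervals. Robo3 stood at 336 CPM in Tet tcKO cone-annotated nuclei and 5.35 CPM in Cre- rods, and Nrl at 221 and 435 CPM.

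To see whether rod and cone transcripts were in the same nuclei, each nucleus was thinned to 500 UMIs, which left out 0 nuclei. Opn1sw was then found in 27.0% (25.5 to 28.6) of cone-annotated nuclei, 3.32% (2.85 to 3.84) of Cre- rods and 5.56% (4.25 to 7.13) of Tet tcKO amacrine nuclei, whose median depth was 1736 UMIs. Without thinning the share in cone-annotated nuclei was 69.0%. Robo3 was found in 15.3% (14.1 to 16.6), 0.307% (0.175 to 0.498) and 3.64% (2.59 to 4.97), and in 0 of 403 Cre- amacrine nuclei at this thinned depth (up to 0.911%), where 3 of the 403 held it without thinning (0.744%, 0.154 to 2.16). Nrl was found in 10.02% (9.00 to 11.1) of cone-annotated nuclei, 20.6% (19.5 to 21.7) of Cre- rods, 1.53% (0.879 to 2.48) of Tet tcKO amacrine and 5.96% (3.85 to 8.73) of Cre- amacrine nuclei, whose median depth was 1065 UMIs. All these shares in the cone-annotated nuclei lay above those of amacrine nuclei of their library.

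A rod gene (Nrl, Nr2e3, Gnat1, Pde6a or Cnga1) and a cone gene (Arr3, Opn1sw, Gnat2, Gngt2 or Pde6c) were found together in 43.8% (42.1 to 45.5) of cone-annotated nuclei. The share was 32.6% (31.3 to 33.9) in Cre- rods, 17.6% (15.8 to 19.5) in Tet tcKO bipolar and 3.84% (2.75 to 5.19) in Tet tcKO amacrine nuclei. A cone gene alone was found in 38.7% of cone-annotated nuclei and 6.50% of Cre- rods, and a rod gene alone in 7.84% and 51.2%. With the 8 clusters pooled, cone genes were found slightly more often in nuclei that also held a rod gene. They were found in 84.8% (83.0 to 86.5) of the 1665 nuclei with a rod gene and in 80.1% (78.0 to 82.0) of the 1560 without. The part of differences between clusters in this was not tested. Opn1sw was found in 27.6% (22.8 to 32.8) of nuclei with Nrl and 26.9% (25.3 to 28.6) of nuclei without, so a difference was not detectable at this depth. Opn1mw was found in 10.8% (8.81 to 13.0) of nuclei with Opn1sw and 8.75% (7.64 to 9.97) without. Among the 5% of nuclei with the highest doublet scores in their library were 6.14% of the cone-annotated nuclei and 2.95% of Cre- rods.

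**Figure D3:**
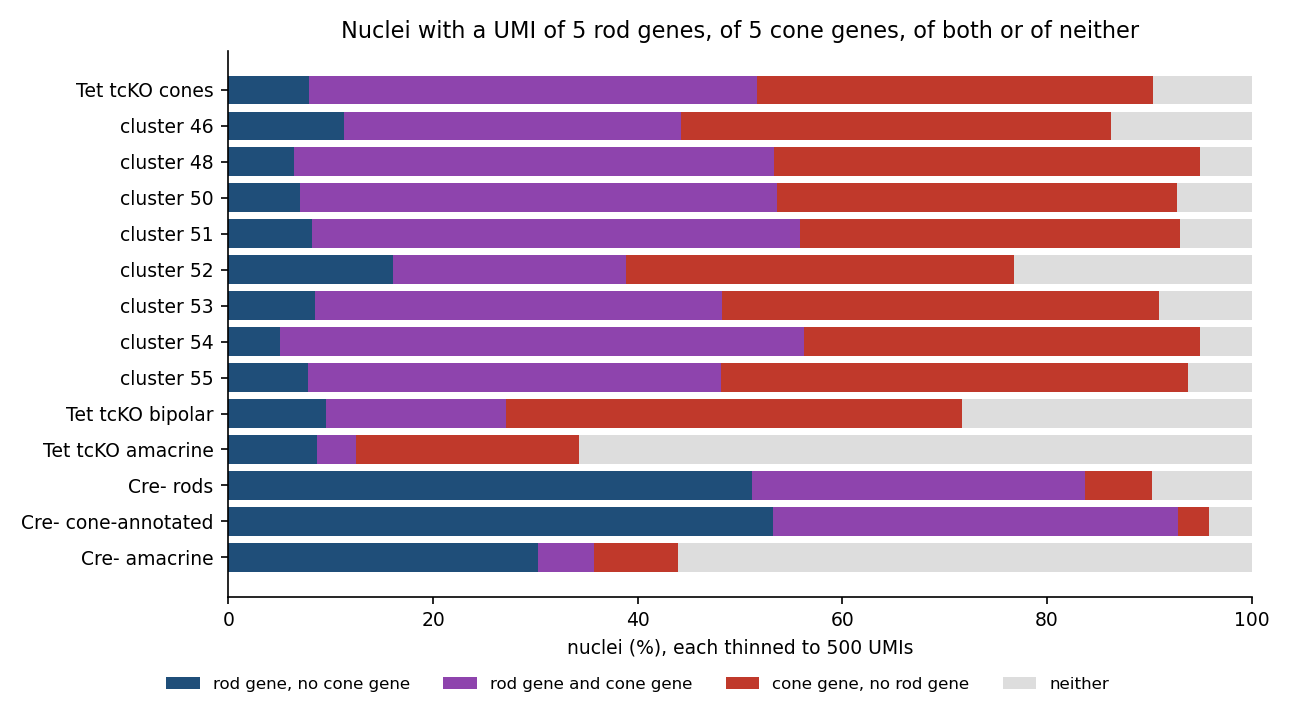
Percent of nuclei (axis from 0) with at least 1 UMI of 5 rod genes only, of 5 cone genes only, of both or of neither after thinning to 500 UMIs, by annotated class of both libraries. Both kinds were found in 43.8% of cone-annotated Tet tcKO nuclei and in 32.6% of Cre- rods.

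Within the cone-annotated nuclei, the 8 clusters differed little in single genes, except cluster 52. Among genes at 100 CPM or more, 542 of 2639 (20.5%) were 2-fold apart between cluster 52 and the other 7, and 35 of 2466 (1.42%) between cluster 46 and the others. The remaining clusters had 16 of 2506 (0.638%) for cluster 54, 3 of 2534 (0.118%) for cluster 48, 2 of 2445 (0.0818%) for cluster 51, 2 of 2468 (0.081%) for cluster 55, 1 of 2412 (0.0415%) for cluster 53 and 0 of 2405 (0%) for cluster 50. Clusters were drawn from these same nuclei and genes, so the counts describe them. Their sizes ran from 211 nuclei (cluster 52) to 592 (cluster 55), and their median depths from 1074 UMIs (cluster 54) to 4354 (cluster 48).

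List medians of cone and rod genes moved together over the clusters. The cone list was highest in cluster 48, with a median of 0.31 over the other 7, and the rod list was too, at 0.37. Both were low in cluster 46 (-0.34 and -0.35) and cluster 52 (-0.31 and -0.50), and within 0.26 of 0 in the others. So by these medians no cluster was high in the cone list and low in the rod list. Summed markers gave another picture for clusters 54 and 55. The 10 cone markers were at 5385 and 5167 CPM there, against 4881 CPM in all cone-annotated nuclei. The 10 rod markers were at 6073 and 6470 CPM, against 6563 CPM. Cluster 48 was also the deepest, and 25.0% of its nuclei were among the highest doublet scores, against 0% of cluster 54. With every nucleus thinned to 500 UMIs, cluster 48 was again the highest in the cone list, and cluster 52 was the lowest in place of cluster 46. The interval of that range was -0.41 to 1.97 and so held 0. With each gene counted once per nucleus, cluster 48 was instead the lowest and cluster 54 the highest. In cluster 46, mt-Co1 (1.35, 1.28 to 1.42) and mt-Nd5 (1.25, 1.06 to 1.43) were among the 3 leading genes, and mitochondrial genes were 5.25% of UMIs, the highest of the clusters.

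**Figure D4:**
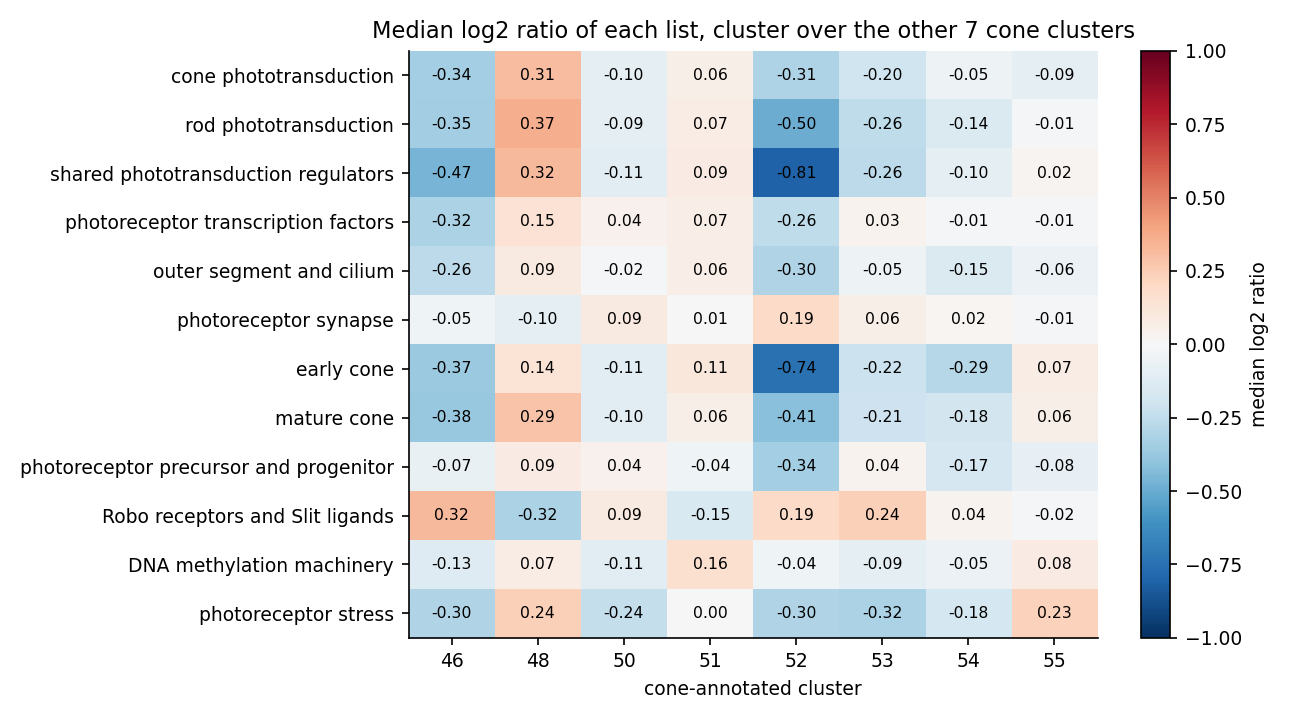
Median log2 ratio (colour) of each gene list (rows) in each cone-annotated cluster (columns) over the other 7 clusters. By summed UMIs, the cone and rod lists were both highest in cluster 48, at 0.31 and 0.37, and the early cone list was lowest in cluster 52, at -0.74.

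Cluster 52 had the lowest level of several genes that mark these nuclei. Robo3 was at 90.9 CPM there and at 230 (cluster 46) to 407 CPM (cluster 48) in the rest, or -1.95 (-2.44 to -1.503). Gnat2 was at 195 CPM against 325 to 631 CPM (-1.45), Arr3 at 911 CPM against 1324 to 2456 CPM (-1.19) and Otop3 at 77.3 CPM against 129 to 208 CPM (-1.22). For all 4 genes, cluster 52 lay below each of the other clusters. Opn1sw was at 402 CPM there, beside 434 CPM in cluster 46 (-0.73 over the other 7). The other direction was taken by Cngb3 (2963 CPM, 0.58), Thrb (866 CPM, 0.97), Dmd, the dystrophin gene (1.16), and Rims2, a scaffold of vesicle release (1.08), each highest in cluster 52.

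Gene length moved with these differences. In cluster 52, genes under 10 kb had a median log2 ratio of -1.02 over the other 7 clusters, genes of 10 to 100 kb one of -0.41 and genes of 100 kb or more one of 0.43. The same order was found in cluster 46 (-0.30, -0.21 and 0.12) and the reverse in cluster 48 (0.27, 0.13 and -0.21). Cone-annotated nuclei over the other Tet tcKO nuclei had medians of 1.06, 0.31 and -0.38, and over Cre- rods of 0.36, 0.28 and 0.06. Cluster 52 had 2.85% Malat1, the highest of the clusters, and 1.37% mitochondrial UMIs, the lowest. The part of gene length in any difference was not tested.

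**Figure D5:**
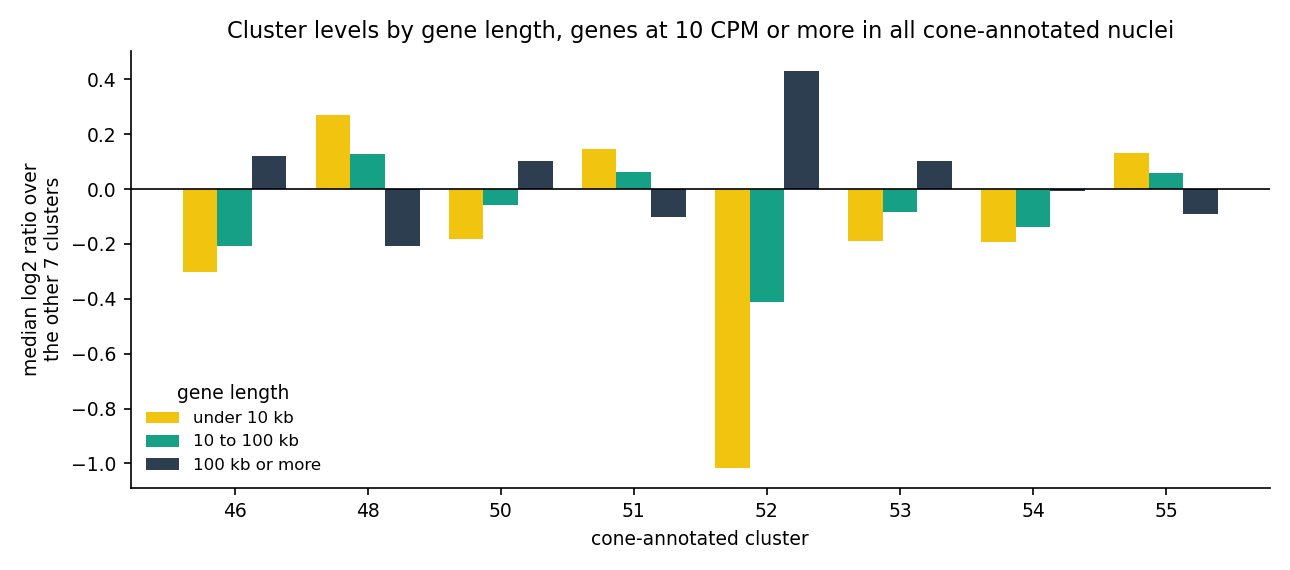
Median log2 ratio (y axis) of genes under 10 kb, of 10 to 100 kb and of 100 kb or more in each cone-annotated cluster (x axis) over the other 7. The 3 classes were farthest apart in cluster 52, at -1.02, -0.41 and 0.43.

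Leading genes of clusters often rested on 1 nucleus. In cluster 46, all 79 UMIs of Ccdc158 came from a single nucleus, in cluster 51, 146 of 148 UMIs of Gm47515 did, in cluster 52, all 62 of Serpina5, and in cluster 54, 22 of 25 of Gm30835. In cluster 48, 93 of 517 UMIs of Gm44077 and 80 of 228 of Col24a1 came from 1 nucleus each. In cluster 50, the 3 leading genes A930001M01Rik (0.78), St6galnac3 (0.72) and Pecam1 (0.64) had 50 of 179, 33 of 120 and 32 of 124 UMIs in 1 nucleus. Other leading genes were spread, as Gna12 (0.90) in cluster 48, Tmem214 and Dbp (0.51 each) in cluster 51, Gm45159 (1.70) and Cnksr2 (1.57) in cluster 52, Rimbp2 (0.75) and Kcnd3 (0.65) in cluster 53, Map7d2 (1.06) in cluster 54 and Uso1 (0.67) in cluster 55. F730035M05Rik led clusters 53 (0.87) and 55 (1.13), Sox5 had 54 of 174 UMIs of cluster 55 in 1 nucleus, and Klc2 had 18 of 29 UMIs of cluster 54 in 1 nucleus.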

How the data were processed

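Per the labels, libraries were made with a PIPseq 3′ kit, and reads were processed with pipseeker on GRCm39. The authors lowered ambient RNA with CellBender and kept nuclei in Monocle3 by their numbers of transcripts and mitochondrial share. After that step, the deposited values are whole UMI counts for every gene in a nucleus. The deposited percent of mitochondrial transcripts is the authors' value and was not used for levels, the deposited size factor is a ratio that was not used, and the deposited gene table holds a signal per genotype that was not used. Cluster and cell type are the authors' annotation, given per nucleus. The authors' own model treated nuclei as replicates and was not repeated.

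UMIs were summed per population and divided by their total. Intervals were exact Poisson, conditional binomial (ratios) and Clopper-Pearson (shares) in scipy 1.17.1 and numpy 2.4.6 (Python 3.11.15, pandas 2.3.3), and doublets were scored on simulated pairs with scikit-learn 1.9.0. A count of 0 was set to 3 counts in ratios. Counts of 2-fold differences took genes at or above 10 CPM in 1 population, and TMM factors came from edgeR 4.0.16. The libraries shared 1 barcode. On simulated data for cone-annotated nuclei over Cre- rods (11367 genes), 95.4% of intervals held the true ratio. The simulated counts followed the Poisson law that the intervals assume, so a share near 95% was given by the design. Clumping of molecules within single nuclei, found above for some genes, was left out, and the intervals do not cover it.

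Members, lists and reference were chosen with earlier results of these data known. Named genes are those of the lists, the 10 highest and 10 lowest ratios over Cre- rods and the 10 highest over other Tet tcKO nuclei at 50 CPM or more, and the 3 highest of each cluster at 100 CPM or more. Alternatives were other scaling, filters, thinning, one count per nucleus, subtraction of the level in amacrine and retinal ganglion cell nuclei, removal of high doublet scores, and each cluster left out. Genes named for cluster 52 outside its 3 highest, and the promoters printed, were picked after their values were seen. Gene lengths were known for 31681 of 32227 genes. Promoter sequence and positions came from the GRCm39 genome and its annotation. Results of some listed genes and 1 promoter are not reported here.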

Additional observations from a re-analysis of the deposited data

How the results depend on the processing

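Of 5309 values recomputed under alternatives, 4241 moved by less than their counting interval or stayed within 1.5 times, 1067 moved by more, and 1, Arr3 over Cre- rods at -0.0470 with each gene counted once per nucleus, changed sign after a 2-fold call. Of 192 list medians 189 kept their sign, and of 5071 single-gene values 4922 did. Over Cre- rods with each gene counted once per nucleus, medians were 1.13 for cone, -1.02 for rod, -0.71 for regulator, -0.00348 for transcription factor, -0.65 for outer segment, -0.32 for synapse, 1.41 for early cone and -0.0185 for mature cone genes. TMM gave 1.31, -1.37, -0.73, 0.0424, -0.57, -0.32 and, for mature cone genes, 0.32, and median of ratios factors gave values within 0.01 of these (1.31, -1.37, -0.73, 0.0401, -0.57, -0.32, 0.32). Thinning to 500 UMIs moved the rod median to -1.28. Subtracting the amacrine and retinal ganglion cell level left fewer genes and gave 1.58 for cone, -0.18 for transcription factor, -0.66 for outer segment, 2.93 for early cone (6 of 10 genes) and 2.63 for precursor genes (7 of 12), and 3041 genes 2-fold apart. Cre- cone-annotated nuclei were also taken as reference, chosen after seeing the data, and 43.4% of them were among the highest doublet scores. With that reference, medians were 1.38 for cone, -1.41 for rod, -0.96 for regulator, 0.0513 for transcription factor, -0.83 for outer segment, -0.32 for synapse, 0.22 for mature cone and 0.95 for precursor genes. Over other Tet tcKO nuclei the cone median was 0.88 once per nucleus, 0.94 with TMM, 0.88 with median of ratios and 1.07 when thinned, and the rod median 1.06, 1.27 and 1.22 under the first 3. Genes 2-fold apart from Cre- rods (1160) numbered 3023 at 1 CPM or more and 411 at 50 CPM or more, and from other Tet tcKO nuclei (2410) 4288 and 1052, or 1402 once per nucleus. Opn1sw was found in 47.5% of nuclei at 1000 UMIs and 69.0% unthinned, and a rod with a cone gene in 74.4% and 91.2%. The cone list was highest in cluster 48 by summed UMIs, when thinned and among nuclei of 1000 UMIs or more, but lowest there and highest in cluster 54 once per nucleus. The cause of these moves was not tested, except that filters change the genes counted and depth the molecules seen.

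Leaving out each cluster, medians over Cre- rods ranged from 1.45 to 1.54 (cone), -1.31 to -1.16 (rod), -0.67 to -0.52 (regulators), 0.20 to 0.24 (transcription factors), -0.44 to -0.36 (outer segment), -0.15 to -0.12 (synapse), 2.14 to 2.23 (early cone), 0.49 to 0.53 (mature cone) and 0.61 to 0.68 (precursor), those over other Tet tcKO nuclei from 1.07 to 1.17 (cone) and 1.43 to 1.495 (rod), and the genes 2-fold apart from 1049 to 1223 and 1977 to 2597. A reference of rod clusters with rod markers could not be made, since 0 of 15 had one among 10 leading genes, and subtraction was not run for the other Tet tcKO nuclei. No paired analysis was possible because each genotype had 1 library. That, the unrecorded pools and a shallow median of 1715 UMIs limit all values to these libraries.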
